A study of Mus musculus with 10 samples.

Results

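Aminoacyl-tRNA synthetases are the enzymes that join each amino acid to its transfer RNA. Their genes were taken by symbol from the count table: every entry made of 1 capital letter followed by ars, with or without a closing 1 or 2, together with Eprs or Eprs1, Farsa and Farsb. This gave 37 genes of 24470 entries, of which 20 code for enzymes named here as cytosolic and 17, with symbols ending in 2, for mitochondrial enzymes. Gonads of C57BL/6 mouse embryos were taken in pairs at E12.5 and cultured on agar for 48 h. One XY gonad of each of 5 embryos received 75 µM of CP 316819, a glycogen phosphorylase inhibitor (GPI), and the contralateral gonad received DMSO as vehicle, which gave 5 GPI and 5 vehicle libraries of whole-gonad RNA. The inhibitor blocks every glycogen phosphorylase and was given to the whole explant, so an effect cannot be assigned to 1 cell type. Total counts ran from 10203679 to 15590223 in vehicle and from 11025409 to 15635322 in GPI libraries.

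Charged tRNAs carry amino acids to the ribosome, and the cytosol and the mitochondrion each need a set of them. Most mammalian synthetases are encoded by a separate gene for each compartment, whereas Gars and Kars serve both, and Eprs charges both glutamate and proline tRNAs. Several cytosolic enzymes are held together in the multi-tRNA synthetase complex, and uncharged tRNA is a known activator of the kinase GCN2, which favors translation of the transcription factor ATF4.

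All 37 genes passed the filter on low counts. Of the 20 cytosolic genes, 12 were higher in GPI and 0 were lower at an adjusted p below 0.05 (edgeR quasi-likelihood test with embryo as block), while scaling by total counts gave 9 higher and 1 lower (Dars) and DESeq2 size factors gave 10 higher. At an unadjusted p below 0.05, 13 cytosolic genes passed, those 12 and Dars, and DESeq2 and limma-voom called 0 lower. Over all 13941 tested genes, 11.1% (1544) were called higher and 11.9% (1654) lower, or 22.9% in either direction. These counts were 1238 higher and 1972 lower with scaling by total counts, and 1499 and 1695 with DESeq2 size factors. They were 969 and 1347 of 13985 genes without embryo 3, and 1024 and 1287 of 13950 without embryo 4. None of the 17 mitochondrial genes was called by edgeR, and 0 had an unadjusted p below 0.05, a level reached by 34.0% of all tested genes. DESeq2 and limma-voom also called 0 of them, while calling 22.9% and 23.6% of all genes. The median log2 fold change (GPI against vehicle) was 0.28 over cytosolic, 0.03 over mitochondrial and 0.02 over all tested genes. The mitochondrial median lay on either side of 0, at -0.02 with scaling by total counts, -0.04 without embryo 3 and -0.05 without embryo 4. Calculated within embryos 1 to 5, the cytosolic median was 0.20, 0.44, 0.45, 0.25 and 0.19, and the mitochondrial median was -0.04, -0.05, 0.10, 0.10 and -0.12. Cytosolic minus mitochondrial medians were therefore above 0 in 5 of 5 embryos, with a mean of 0.31 ± 0.13 (SD, n = 5), and this difference was not tested. For 8 cytosolic genes every GPI value lay above every vehicle value, against 0 mitochondrial genes and 7.07% of all tested genes.

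**Figure D1:**
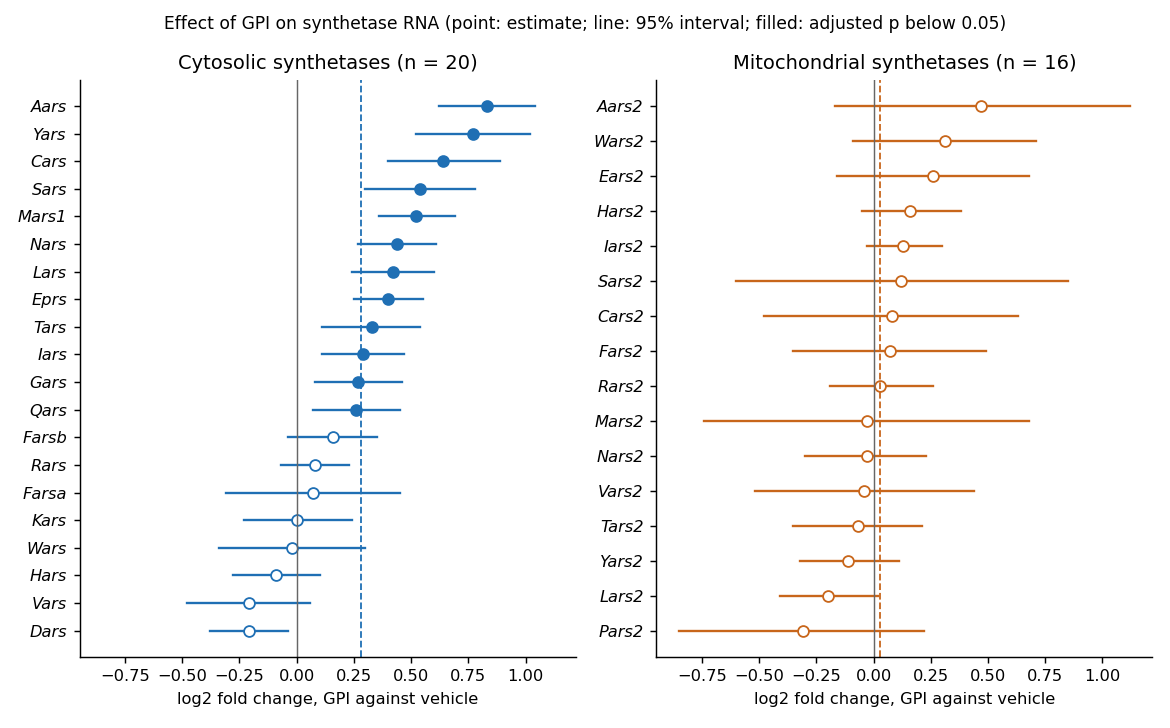
Log2 fold change of each synthetase gene in GPI against vehicle gonads (points), with its 95% interval (lines), for 20 cytosolic and 16 of 17 mitochondrial genes; filled points have an adjusted p below 0.05 and dashed lines mark the medians over all 20 and all 17 genes, 0.28 and 0.03. The 12 filled points are all cytosolic and lie between 0.26 and 0.83, of which 9 pass with scaling by total counts, where Dars is lower, and 10 with DESeq2 size factors.

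Markers of several cell types of the gonad differed between the groups. Summed normalized counts of 8 endothelial markers were 7697, 7933, 7348, 8479 and 7529 in vehicle and 856, 1006, 696, 556 and 710.4 in GPI gonads, with Cdh5 as the most abundant gene, and all 8 were called lower, led by Cdh5 (log2 fold change -3.63 ± 0.12, SE), Flt1 (-5.18 ± 0.18) and Pecam1 (-4.16 ± 0.15). The 10 germ cell markers together gave 1049, 2143, 1342, 1811 and 689 in vehicle and 173, 129.7, 58, 60 and 162 in GPI gonads, of which Dazl was the most abundant and 6 of 7 tested genes were lower, led by Dppa3 (-5.20 ± 0.36), Dazl (-4.62 ± 0.34) and Sall4 (-4.89 ± 0.43). The 5 Leydig cell markers summed to 1280.0, 2700.4, 3979.8, 1991 and 5303 in vehicle and 9634, 10119, 15749, 18089 and 12928 in GPI gonads, with Hsd3b1 the most abundant and 4 of 4 tested genes higher, the steroidogenic genes Cyp17a1 (3.90 ± 0.29), Cyp11a1 (2.90 ± 0.27), Hsd3b1 (1.75 ± 0.20) and Star (0.79 ± 0.12).

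Every GPI gonad was thus below its contralateral vehicle gonad in endothelial and germ cell markers and above it in Leydig cell markers. Sums of 8 macrophage markers, with Cd68 the most abundant, were 671, 471, 514, 499 and 424 in vehicle and 299, 243, 224, 128 and 153 in GPI gonads, and 6 of 7 tested genes were lower, led by Csf1r (-2.22 ± 0.21), C1qb (-1.91 ± 0.28) and C1qa (-3.78 ± 0.56). Those of 8 erythroid markers, with Hbb-y the most abundant, were 2054, 2778, 5223, 4895 and 4090.5 in vehicle and 1850.1, 1012, 945, 1066 and 2492 in GPI gonads, and 7 of 8 were lower, among them Hbb-bt (-3.84 ± 0.31) and Hbb-bs (-4.13 ± 0.34). Both sums were lower in GPI in all 5 embryos. The 7 Sertoli cell markers, Sox9 being the most abundant, summed to 2104, 3182, 2267, 2764 and 3112 in vehicle and 2641, 4135, 4101, 4908 and 3977 in GPI gonads, and 5 of 7 were higher, led by Sox8 (1.43 ± 0.16), Sox9 (0.59 ± 0.09) and Dhh (0.92 ± 0.15). The 4 interstitial markers gave 11484, 13346, 13231, 11106 and 13089 in vehicle and 12918, 13277, 12367, 11468 and 14084 in GPI gonads, with the most abundant, Pdgfra, higher (0.33 ± 0.07), 2 lower, among them Tcf21 (-0.30 ± 0.08), and Nr2f2 not called (-0.18 ± 0.07). After culture the adjoining mesonephros was removed by dissection. Of 4 markers listed for it, Upk3b and Krt19 also mark the epithelium on the gonad's surface, so their sum does not measure mesonephros alone. The sums were 925, 641, 746, 511 and 456 in vehicle and 790.2, 692, 669, 577 and 621 in GPI gonads, and edgeR, DESeq2 and limma-voom called 0 of 3 tested genes, with 0 at an unadjusted p below 0.05, among Upk3b, the most abundant (0.23 ± 0.11), Pax8 (-0.28 ± 0.27) and Krt19 (-0.05 ± 0.22). No listed marker was at 0 in every library. In whole-gonad RNA, more or fewer cells of a type and more or less RNA per cell cannot be told apart, and the part of these markers in the synthetase result was not tested.

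Outside the multi-tRNA synthetase complex, 7 of 12 cytosolic genes rose, though Tars and Gars were not called with scaling by total counts, nor Gars with DESeq2 size factors. Aars (Entrez 234734, chr8:111033842-111055569 on the plus strand, mm10), the alanine enzyme, had the smallest p. Its normalized counts were 524, 595, 534, 538 and 592 in the vehicle gonads of embryos 1 to 5 and 998, 1017, 1159, 976 and 828 in their GPI gonads. The lowest GPI value, in embryo 5, was above the highest vehicle value, and the mean rose from 557 ± 34.3 to 996 ± 118 (SD, n = 5 each), a 1.78-fold change (log2 fold change 0.83 ± 0.10 SE, adjusted p = 2.89e-05). The mitochondrial alanine enzyme, Aars2, was sparsely counted, at 34.3, 34.6, 54.7, 36.9 and 23.6 in vehicle and 56, 53.5, 35.2, 50.5 and 55.6 in GPI gonads. It was higher in 4 of 5 embryos and lower in embryo 3, and its interval of -0.17 to 1.12 on the log2 scale spanned both no change and the change of Aars.

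Yars (Entrez 107271, chr4:129189795-129219607 on the plus strand, mm10) charges tyrosine tRNA. Vehicle gonads had 289, 251, 267, 289.9 and 359.6 normalized counts and GPI gonads 463, 482, 548, 531 and 449. All GPI values exceeded all vehicle values, although embryo 5 had both the highest vehicle and the lowest GPI value (1.70-fold, log2 fold change 0.77 ± 0.12 SE, adjusted p = 0.000294). The 3′ end of Yars overlaps C77080 on the other strand, whose counts went the opposite way (log2 fold change -1.16 ± 0.16, adjusted p = 0.000152), and because counting ignored strand, reads of the shared end cannot be assigned to 1 gene. Yars2, its mitochondrial counterpart, gave 388, 390.2, 355, 319.7 and 268 in vehicle and 335, 339, 341, 321 and 257 in GPI gonads. These ranges overlapped, with 4 of 5 embryos lower in GPI, and the 95% interval of -0.32 to 0.11 lay below the cytosolic median of 0.28.

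Start-site windows of 160 bases are shown for the called genes in which the core of the C/EBP-ATF response element was found, and for Aars2 and Yars2, in which it was not. They run from 130 bases before to 30 bases after the annotated start in RefSeq (GRCm38.p6), 5′ to 3′ on the gene's strand, at chr8:111033712-111033871 on the plus strand for Aars, chr4:129189773-129189932 on the plus strand for Yars, chr6:55037871-55038030 on the plus strand for Gars, chr13:49682000-49682159 on the plus strand for Iars, chr15:11399629-11399788 on the minus strand for Tars, chr17:45506702-45506861 on the plus strand for Aars2 and chr16:16302835-16302994 on the plus strand for Yars2. The RefSeq start used for Yars lay 108 bases inside the deposited gene and that of Aars2 9 bases before it, and the others matched the deposited starts. Capitals mark TGATGNAAN or its reverse complement.
Aars: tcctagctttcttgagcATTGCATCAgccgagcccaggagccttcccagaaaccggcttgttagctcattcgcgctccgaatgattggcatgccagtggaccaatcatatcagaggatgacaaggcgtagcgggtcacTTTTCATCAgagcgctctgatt
Yars: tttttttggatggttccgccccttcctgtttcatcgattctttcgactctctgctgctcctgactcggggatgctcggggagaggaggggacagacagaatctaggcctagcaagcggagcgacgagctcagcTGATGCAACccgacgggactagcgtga
Gars: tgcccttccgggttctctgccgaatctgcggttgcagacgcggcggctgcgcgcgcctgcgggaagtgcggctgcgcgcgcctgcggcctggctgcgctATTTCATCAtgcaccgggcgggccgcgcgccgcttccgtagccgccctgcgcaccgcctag
Iars: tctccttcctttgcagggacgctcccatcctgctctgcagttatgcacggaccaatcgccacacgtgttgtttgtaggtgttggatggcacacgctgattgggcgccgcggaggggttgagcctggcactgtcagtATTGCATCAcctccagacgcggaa
Tars: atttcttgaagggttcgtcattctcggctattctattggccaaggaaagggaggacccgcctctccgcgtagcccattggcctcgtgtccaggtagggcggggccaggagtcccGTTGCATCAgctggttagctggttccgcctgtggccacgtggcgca
Aars2: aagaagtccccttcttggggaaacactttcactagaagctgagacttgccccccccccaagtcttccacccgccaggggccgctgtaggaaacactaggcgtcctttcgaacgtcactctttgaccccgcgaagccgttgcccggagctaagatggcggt
Yars2: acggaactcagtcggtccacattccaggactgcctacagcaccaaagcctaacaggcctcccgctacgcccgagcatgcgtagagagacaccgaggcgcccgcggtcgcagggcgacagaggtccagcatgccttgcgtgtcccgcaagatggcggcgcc

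TGATGNAAN, a shared core of sites at which ATF4 pairs with C/EBP proteins, was searched on both strands from 250 bases before to 50 after the start, together with CACGTG (E-box) and GCGCANGCG (core of the NRF1 site). RefSeq windows were matched for 27 of 37 synthetase genes, and those of the others, among them Cars, Hars, Hars2, Lars, Nars, Pars2, Rars, Vars and Wars, were not analysed here. The response element core was in 5 of 9 called genes with a window, namely Aars (beginning at -113 and +9), Yars (+4), Iars (+7), Tars (-16, not called with scaling by total counts) and Gars (-31, not called with that scaling or DESeq2 size factors), and in 0 of 18 others, 14 of them mitochondrial. Without embryo 3, Iars, Tars and Gars were not called, and the core was in 2 of 5 called genes (Aars and Yars) and 3 of 22 others. It was in 3 called genes without embryo 2 (not Tars or Gars), with scaling by total counts (not Tars or Gars) and with no replicate block (not Iars or Gars). Among all 32851 RefSeq windows, 3.95% held it, and among tested genes it was in 4.52% of those called higher, 2.96% of those called lower and 2.51% of those not called. Eprs, Mars1, Sars and Qars rose without it in their windows, though Qars was called under only 2 of 12 alternative settings. The E-box (7.15% of all windows) was found for Aars, Ears2, Farsb, Iars and Tars, and the NRF1 core (6.25%) for Farsb, Iars2, Kars, Mars2, Tars, Vars2 and Wars2, with called and uncalled genes in both groups. These matches describe letters, and binding was not measured.

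**Figure D2:**
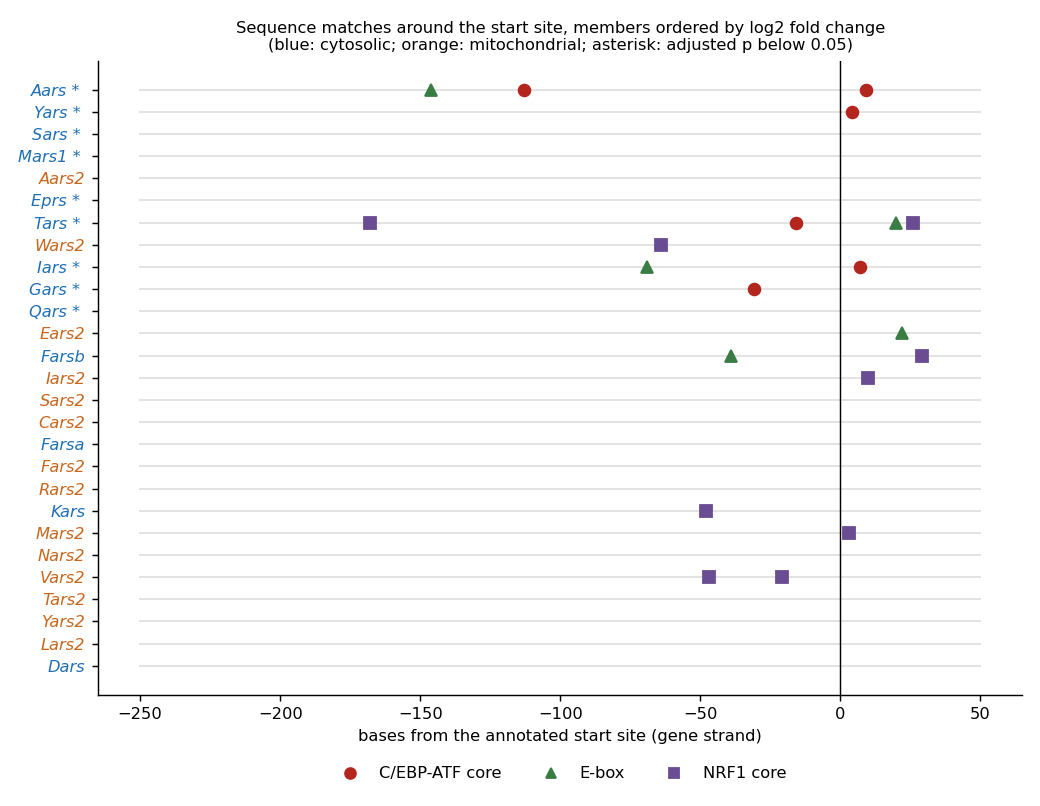
Positions of the first base of each match, in bases from the annotated start, for the 27 synthetase genes with a RefSeq window, ordered by log2 fold change; asterisks mark genes with an adjusted p below 0.05. Red points, the response element core, are found in 5 genes, all of them blue (cytosolic) and called with every embryo included, though Tars and Gars are not called with scaling by total counts, nor Gars with DESeq2 size factors, nor Iars, Tars or Gars without embryo 3.

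Cars (chr7:143557230-143600090 on the minus strand), the cysteine enzyme, counted 389, 302, 352, 454 and 475 in vehicle and 558, 602, 631, 706 and 555 in GPI gonads, without overlap (1.56-fold, log2 fold change 0.64 ± 0.11 SE, adjusted p = 0.000957). In Cars2, the values were 72, 69.2, 41.3, 37.9 and 73.1 and 63.8, 77.8, 64.7, 60 and 39.2, respectively. The Cars2 ranges overlapped almost entirely, and with 36 to 96 raw counts per library its interval (-0.48 to 0.63) was wide. GENCODE transcripts of Cars2 and Naxd (mean normalized count of Naxd 73.4 in vehicle and 82.1 in GPI) share 217 bases on opposite strands, so the Cars2 level is uncertain. Nars, which charges asparagine tRNA, was more abundant, at 1799, 1743, 1759.9, 2035 and 1994 normalized counts in vehicle and 2337, 2542, 2771, 2754 and 2266 in GPI gonads. Its ranges did not overlap and its mean rose by 1.36-fold (log2 fold change 0.44 ± 0.08 SE, adjusted p = 0.000952). Nars2 gave 276, 274, 356, 257 and 263 in vehicle and 313, 259, 251, 268 and 296 in GPI gonads, which overlapped (log2 fold change -0.03 ± 0.12 SE, adjusted p = 0.881), and 284 bases of its transcript are shared with C230038L03Rik on the other strand.

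**Figure D3:**
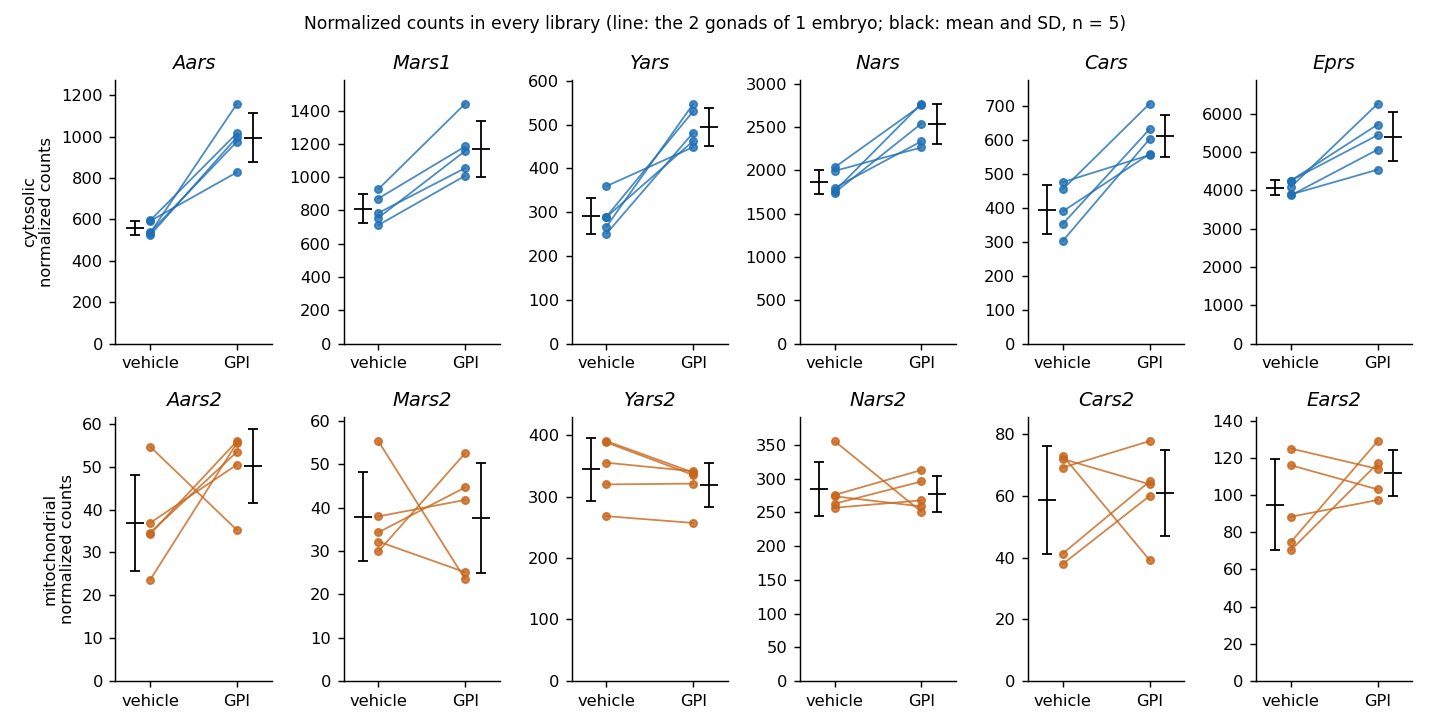
Normalized counts of 6 cytosolic synthetase genes (top, blue) and their mitochondrial counterparts (bottom, orange) in every library, with the 2 gonads of an embryo joined by a line and the mean ± SD (n = 5) in black. All lines rise in the top panels, from 557 to 996 on average for Aars, and each bottom panel has rising and falling lines.

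Sars (serine), Tars (threonine) and Gars (glycine) completed the 7 genes outside the complex that rose. Sars increased 1.45-fold (log2 fold change 0.54 ± 0.11 SE, adjusted p = 0.00296) with no overlap between groups. Its log2 ratio within embryos ran from 0.04 in embryo 5, where it hardly changed, to 0.84 in embryo 1. The rise of Tars was smaller (log2 fold change 0.33 ± 0.10 SE, adjusted p = 0.0297), higher in 5 of 5 embryos with overlapping ranges, and it was not called without embryo 2 (adjusted p = 0.0922) or embryo 3 (0.192) or with scaling by total counts (0.0542). Gars (log2 fold change 0.27 ± 0.09 SE, adjusted p = 0.0456) was higher in 4 of 5 embryos and was called under 4 of 12 alternative settings, with adjusted p from 0.0116 to 0.206, and not without embryo 1 (0.0794), embryo 2 (0.139), embryo 3 (0.206) or embryo 4 (0.121). The 5 genes outside the complex that were not called were both subunits of the phenylalanine enzyme, Farsb (0.16 ± 0.09; it overlaps Sgpp2 on the other strand) and Farsa (0.07 ± 0.17), and the histidine, tryptophan and valine enzymes Hars (-0.09 ± 0.09), Wars (-0.02 ± 0.15) and Vars (-0.21 ± 0.13). Their adjusted p ranged from 0.247 for Farsb to 0.944 for Wars.

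Of the 8 synthetase genes whose products belong to the complex, 5 rose, with a median log2 fold change of 0.28 against 0.30 for the 12 genes outside it, though Qars was not called with scaling by total counts or DESeq2 size factors, and 3 were called without embryo 3 and 3 without embryo 5 (both lost Iars and Qars). Mars1 (chr10:127296221-127311786 on the minus strand), which charges both initiator and elongator methionine tRNAs, had 785, 872, 928, 756 and 712 normalized counts in vehicle and 1055, 1185, 1442, 1158 and 1009 in GPI gonads. Each GPI value was above each vehicle value, with similar log2 ratios in the 5 embryos, from 0.43 to 0.64 (1.44-fold, log2 fold change 0.52 ± 0.08 SE, adjusted p = 0.000206). The 3′ end of Mars1 overlaps that of Ddit3 on the other strand, so reads there could not be assigned by strand, although Ddit3 had few counts (mean 77.4 in vehicle and 92.1 in GPI). Its mitochondrial counterpart Mars2 counted 55.4, 32.2, 38, 29.9 and 34.3 in vehicle and 23.5, 25.1, 41.8, 52.6 and 44.7 in GPI gonads, lower in 2 embryos and higher in 3.

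Eprs (chr1:185363095-185428355 on the plus strand) was the most abundant cytosolic synthetase. Its vehicle values, 4256, 3871, 4086, 4255 and 3892, were closely grouped, and its GPI values, 5443, 5065, 6262, 5718 and 4540.4, all lay above them (1.32-fold, log2 fold change 0.40 ± 0.07 SE, adjusted p = 0.000834). In mitochondria the same amino acids are handled by Ears2, for glutamate, and Pars2, for proline. Ears2 had 116, 88.3, 70.3, 74.7 and 125 in vehicle and 103, 97.3, 117, 129 and 114 in GPI gonads, and Pars2 had 59.8, 39.4, 83.7, 65.7 and 61.7 and 68.3, 48.6, 54.2, 45.2 and 33.8. Both pairs of ranges overlapped, and the fold changes had opposite signs (0.26 ± 0.19 and -0.31 ± 0.25). GENCODE transcripts of Ears2 and Ubfd1 share 89 bases on opposite strands, although their deposited coordinates do not overlap. Ubfd1 had a mean of 1735 in vehicle and 1739 in GPI, so the Ears2 level is uncertain.

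The leucine enzyme Lars counted 764, 710.0, 834, 942 and 863 in vehicle and 866, 1062, 1225, 1258 and 1096 in GPI gonads. It was higher in 5 of 5 embryos, and only the GPI value of embryo 1 fell within the vehicle range (1.33-fold, log2 fold change 0.42 ± 0.08 SE, adjusted p = 0.0024). Iars, for isoleucine, had 3012, 3827, 3015, 3122 and 2599 in vehicle and 3358, 4247, 4419, 3325 and 3696 in GPI gonads. Embryo 2 was high in both of its gonads and the ranges overlapped, but GPI exceeded vehicle in 5 of 5 embryos (1.22-fold, log2 fold change 0.29 ± 0.08 SE, adjusted p = 0.02). The call of Iars was lost without the replicate block (adjusted p = 0.0559), without embryo 3 (0.156) and without embryo 5 (0.0872). Its level is uncertain because 1656 bases of its transcript are 96.0% identical to Gm4849. Qars, for glutamine, was near the threshold (log2 fold change 0.26 ± 0.09 SE, adjusted p = 0.0493), with adjusted p from 0.0449 to 0.182 and a call under 2 of 12 alternative settings, and leaving out any embryo ended the call (adjusted p = 0.142, 0.0678, 0.0691, 0.182 and 0.104 without embryos 1 to 5).

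Dars, the aspartate enzyme of the complex, had a log2 fold change below 0, as did Vars, Hars and Wars outside it. Its values were 972, 876, 922, 892 and 894 in vehicle and 779, 749.9, 745, 848 and 818 in GPI gonads, so that every GPI value was below every vehicle value, as in 9.05% of all tested genes. The difference did not pass the threshold (log2 fold change -0.21 ± 0.08 SE, adjusted p = 0.0763), but did so with scaling by total counts (adjusted p = 0.034) and without the replicate block (0.0474). For the other complex members, Rars (arginine) had a log2 fold change of 0.08 ± 0.07 and Kars (lysine) of 0.00 ± 0.11. The 3 scaffold genes were not called by edgeR, DESeq2 or limma-voom and had 0 unadjusted p below 0.05, with log2 fold changes of -0.30 ± 0.16 for Aimp2, 0.11 ± 0.16 for Eef1e1 and 0.05 ± 0.10 for Aimp1. By catalytic class, 6 of 9 class I and 5 of 10 class II cytosolic genes rose, leaving out Eprs, which has a domain of each, and without Tars and Gars (class II) and Qars (class I) when scaled by total counts, or without Gars and Qars with DESeq2 size factors.

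The mitochondrial synthetases ranged from -0.31 (Pars2) to 0.47 (Aars2) in log2 fold change, 9 above and 8 below 0. None was higher or lower in all 5 embryos, whereas 11 cytosolic genes were higher and 1 (Dars) lower in all 5, as were 2144 (higher) and 2113 (lower) of 13941 tested genes. Lars2, for leucine, had the smallest p. Its normalized counts were 54444, 75752, 54828, 53784 and 58361 in vehicle and 63126, 48165, 55211, 41351 and 51853 in GPI gonads. The vehicle gonad of embryo 2 was highest and the GPI gonad of embryo 4 lowest, with 3 of 5 embryos lower (log2 fold change -0.20 ± 0.10 SE, adjusted p = 0.196), and single embryos moved it, to -0.32 and a call without embryo 1 (adjusted p = 0.0255) and to -0.08 without embryo 2 (0.572). Its raw counts of 39303 to 76603 per library were far above those of the other mitochondrial genes, which reached 1828 at most (Iars2). A stretch of 72 bases in its transcript is 98.6% identical to Gm15564, so the Lars2 level is uncertain.

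Iars2, the mitochondrial isoleucine enzyme, had the most counts of the others, at 1343, 1252, 1410.3, 1413 and 1226 in vehicle and 1329.6, 1482, 1584, 1409.8 and 1478 in GPI gonads. The ranges overlapped, with a log2 fold change of 0.13 and an interval of -0.03 to 0.30. Its 3′ end overlaps that of Rab3gap2 on the other strand (mean 506 in vehicle and 524 in GPI), so reads there cannot be assigned to 1 gene. Wars2 (tryptophan) gave 166, 118, 102, 107 and 114 in vehicle and 124, 127, 145, 143 and 209 in GPI gonads. The vehicle value of embryo 1 and the GPI value of embryo 5 were far above the others of their groups (log2 fold change 0.31 ± 0.19 SE, adjusted p = 0.277). The cytosolic enzyme for tryptophan, Wars, gave 226, 154, 216, 226 and 253 and 215, 239, 197, 175 and 229, again with overlap.

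Hars2 and Hars, for histidine, are divergent neighbors with 3 bases between their deposited coordinates, but their GENCODE transcripts share 195 bases on opposite strands, where reads counted without strand cannot be assigned to 1 gene. Hars2 counted 361, 351, 393, 425 and 462 in vehicle and 426, 454, 457, 450.3 and 434 in GPI gonads. Hars counted 761, 691, 745, 862 and 769 and 739, 799, 659.9, 735 and 665. Neither was called (log2 fold change 0.16 ± 0.10 SE, adjusted p = 0.288 and log2 fold change -0.09 ± 0.09 SE, adjusted p = 0.538), yet the log2 ratio of Hars was below that of Hars2 in all 5 embryos, with -0.25 between the fitted values, a difference that was not tested. Log2 fold changes of other mitochondrial genes were those of Tars2 (-0.07 ± 0.13), Sars2 (0.12 ± 0.34), Fars2 (0.07 ± 0.19), Rars2 (0.03 ± 0.10) and Vars2 (-0.04 ± 0.22), the enzymes for threonine, serine, phenylalanine, arginine and valine. On opposite strands, 130 bases of the Vars2 transcript are shared with Gm20483 and 115 of the Fars2 transcript with Lyrm4, so both levels are uncertain.

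Precision differed between the compartments. The median standard error of the log2 fold change was 0.09 for cytosolic and 0.19 for mitochondrial genes. All 17 mitochondrial 95% intervals held 0, 10 of them also held the cytosolic median of 0.28, and 7 lay entirely below it (among them Lars2, Pars2, Yars2, Tars2, Rars2 and Nars2). For the sparsely counted Aars2, Sars2, Mars2, Cars2 and Vars2, a rise of the size of the cytosolic median could not be told from no change at this depth. The same held for Iars2, Hars2, Wars2, Ears2 and Fars2, whose intervals also held both values. Summed over genes, cytosolic synthetases had 19342, 19397, 19950.3, 20659.8 and 19637 normalized counts in vehicle and 23347, 24856, 27437, 25452 and 22577 in GPI gonads, without overlap. The sum over all 17 mitochondrial genes, most of it Lars2, went from 63022 ± 9230.1 to 55702 ± 8057 (SD, n = 5), higher in 2 of 5 embryos. Without Lars2 it went from 3588 ± 109 to 3761 ± 109 (SD, n = 5), higher in 4 of 5 embryos.

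Enzymes of the same amino acid could be compared for 17 amino acids, with Eprs set against both Ears2 and Pars2 and the mean of Farsa and Farsb against Fars2. The cytosolic log2 fold change was the larger in 13 pairs. These were all 11 pairs with a called cytosolic gene, Eprs serving for both glutamate and proline, and 2 of 6 pairs without a called gene. The cytosolic change was larger in every embryo for 3 pairs. The widest gap was that of tyrosine, where Yars minus Yars2 was 0.89, 1.14, 1.09, 0.87 and 0.38 in embryos 1 to 5 (mean 0.88 ± 0.30, SD). For alanine, the gene with the largest cytosolic change, the difference varied between embryos, at 0.23, 0.15, 1.75, 0.41 and -0.73. Proline (Eprs against Pars2, 0.16, 0.09, 1.24, 0.96 and 1.08) and asparagine (Nars against Nars2, 0.19, 0.63, 1.16, 0.37 and 0.01) were the other 2 pairs with the cytosolic change larger throughout. Histidine went the other way in every embryo (Hars against Hars2, -0.28, -0.16, -0.39, -0.31 and -0.12), and no difference within a pair was tested.

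**Figure D4:**
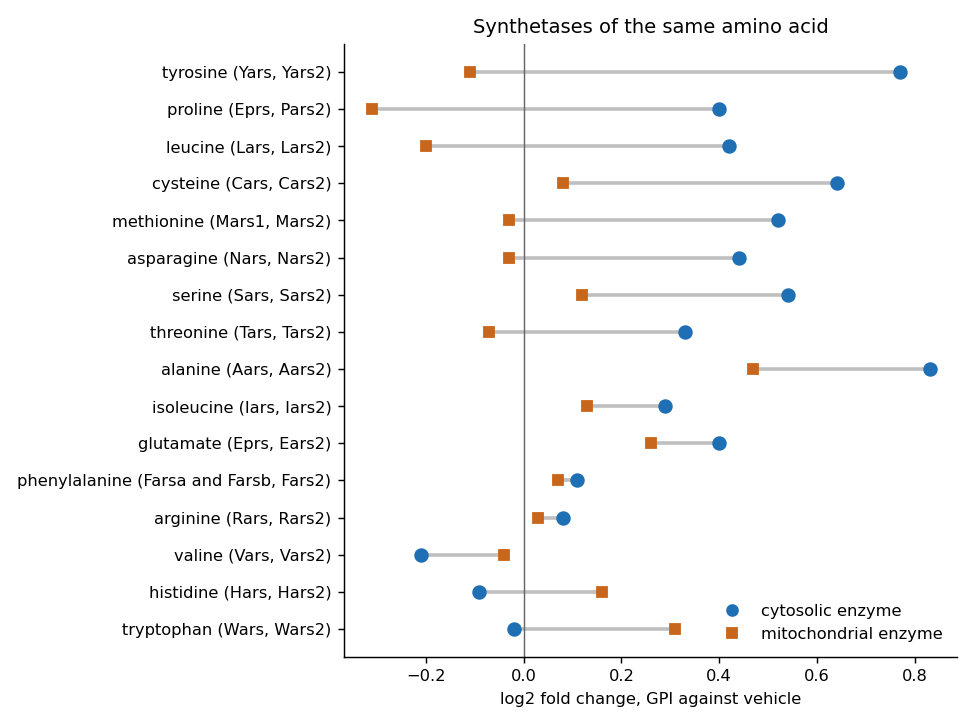
Log2 fold change in GPI against vehicle gonads of the cytosolic (blue circles) and mitochondrial (orange squares) enzyme of 16 of 17 amino acids, ordered by their difference; for phenylalanine the circle is the mean of 2 subunits. The circle lies to the right for 13 amino acids, most widely for tyrosine (0.87), and to the left for valine, histidine and tryptophan. For 11 of those 13 the cytosolic gene was called.

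Levels were compared between genes as normalized counts per kilobase of exon in vehicle gonads. The cytosolic median was 241, from 51.1 (Farsa) to 839.6 (Eprs). Rars (721), Iars (709), Nars (704) and Gars (557) followed Eprs on this scale. The mitochondrial median was 50.4, with Aars2 lowest (11) and, apart from Lars2 (15314), Iars2 highest (376). The cytosolic level was the higher for 15 of 17 amino acids, the exceptions being leucine and tyrosine. For leucine this rests on Lars2, whose level is uncertain. For tyrosine, Yars stood at 101 and Yars2 at 219. With GPI, Yars reached 172 and Yars2 202 per kilobase. The median vehicle level per kilobase was 237 for the cytosolic genes that rose and 258 for those not called.

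Genes at the steps around tRNA charging are given with their log2 fold changes ± SE, beside the 22.9% of all tested genes that were called and their median of 0.02. For tRNA maturation and export, 2 of 21 genes rose (median 0.03): Trnt1, which adds the CCA end to tRNA (0.35 ± 0.09, adjusted p = 0.0124), and Xpot, which exports tRNA from the nucleus (0.29 ± 0.08, adjusted p = 0.0181), while the tRNA methyltransferase Nsun2 was not called (-0.23 ± 0.09, adjusted p = 0.0742). Indirect charging routes had 0 of 6 called (median 0.16), with log2 fold changes of 0.34 ± 0.22 for Qrsl1, 0.20 ± 0.22 for Gatb and 0.05 ± 0.08 for Gatc, the subunits of the mitochondrial glutamyl-tRNA amidotransferase, 0.14 ± 0.17 for Mtfmt, which formylates initiator tRNA, and 0.18 ± 0.16 and -0.06 ± 0.18 for Pstk and Sepsecs of the selenocysteine route. Editing factors and paralogs had 0 of 5 called (median -0.06): Tarsl2, another threonine enzyme (0.16 ± 0.16), Prorsd1 (0.09 ± 0.16), Aarsd1 (-0.06 ± 0.13), Dtd1 (-0.09 ± 0.21) and Dtd2 (-0.11 ± 0.20), which clear mischarged tRNA. For both lists DESeq2 and limma-voom also called 0, and 0 genes had an unadjusted p below 0.05.

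Elongation factors, among them Eef1a1, which delivers charged tRNA to the ribosome, and Eef2, which moves it along, had 0 of 5 called (Eef1b2 0.13 ± 0.07, Eef2 0.05 ± 0.07, Eef1d 0.04 ± 0.08, Eef1a1 0.01 ± 0.06 and Eef1g 0.01 ± 0.08), 0 with DESeq2 or limma-voom and 0 at an unadjusted p below 0.05. Cytosolic ribosomal proteins had 6 higher and 3 lower of 76 (median 0.09), with 10 called by DESeq2 and 11 by limma-voom, led by Rpl15 (0.42 ± 0.10, adjusted p = 0.00562), Rpl23a (0.32 ± 0.08, adjusted p = 0.00671) and Rpl10 (0.35 ± 0.08, adjusted p = 0.00723). Mitochondrial ribosomal proteins had 4 of 78 higher (median 0.09), with 2 called by DESeq2 and 3 by limma-voom, led by Mrps23 (0.50 ± 0.14, adjusted p = 0.0188), Mrpl41 (0.53 ± 0.16, adjusted p = 0.0298) and Mrps11 (0.45 ± 0.15, adjusted p = 0.0419). Mitochondrial translation factors had 0 of 12 called (median 0.10), 0 with DESeq2 or limma-voom and 1 at an unadjusted p below 0.05, Mtrf1 (0.36 ± 0.15, adjusted p = 0.105), followed by Gfm1 (0.16 ± 0.09) and Mtif3 (0.29 ± 0.16).

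**Figure D5:**
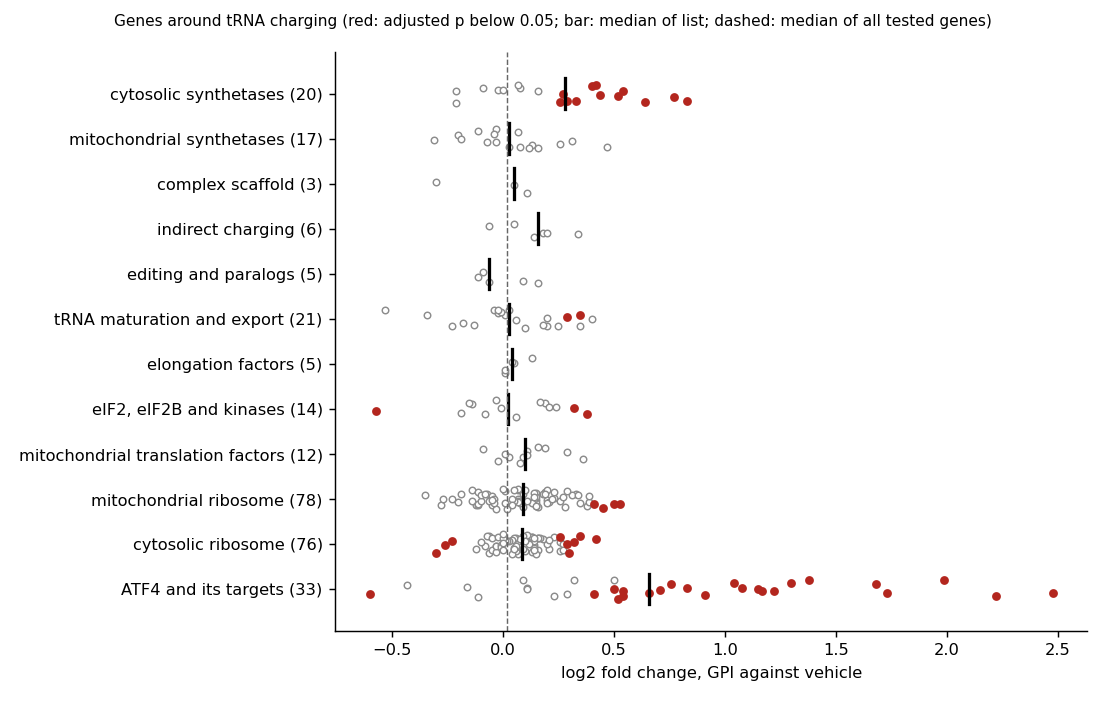
Log2 fold change in GPI against vehicle gonads of cytosolic and mitochondrial synthetases and of 10 lists of genes around tRNA charging (number tested in parentheses); each point is 1 gene, red where its adjusted p is below 0.05, and black bars are list medians. The cytosolic synthetase median (0.28) and that of ATF4 and its targets (0.66) lie above the other 10 medians, which run from -0.06 to 0.16.

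Among initiation factor eIF2, its exchange factor and its kinases, 2 of 14 genes rose, Impact, an inhibitor of GCN2 (0.38 ± 0.09, adjusted p = 0.00513), and Eif2s2, the beta subunit of eIF2 (0.32 ± 0.07, adjusted p = 0.0052), and Eif2b2, a subunit of the exchange factor, fell (-0.57 ± 0.17, adjusted p = 0.0231). Of 33 tested genes in the list of ATF4 and its targets, 22 rose, Atf4 among them, and 1 fell, with Asns (1.15 ± 0.11, adjusted p = 3.44e-06), which makes asparagine, the cystine importer Slc7a11 (1.99 ± 0.21, adjusted p = 1.19e-05) and the stress protein Nupr1 (2.22 ± 0.25, adjusted p = 2.53e-05) in front. In the MYC family, whose proteins bind the E-box, Myc fell (-0.30 ± 0.09, adjusted p = 0.0247), and Max (-0.16 ± 0.09), Mycn (-0.18 ± 0.12) and Mycl (0.21 ± 0.24) were not called.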

How the data were processed

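RNA from 10 gonads (5 GPI, 5 vehicle) was sequenced as read pairs. The authors mapped them to mm10 with STAR (2.5 in the submitters' notes), counted pairs per RefSeq gene without strand with featureCounts (Subread 1.5.0-p1) and deposited raw counts for 24470 entries, used here as deposited. Every column of values per sample was assigned to a sample by its title. Libraries were amplified before sequencing, and errors given here reflect differences between embryos, not counting error alone.

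Entries were filtered with filterByExpr (minimum count 10, total 15), leaving 13941, and libraries were scaled by TMM. GPI was compared with vehicle by edgeR 4.0.16 (R 4.3.3) quasi-likelihood tests across all genes with embryo as block and Benjamini-Hochberg adjustment at 0.05. Gonads of an embryo came from 1 animal, and their deviations from group means correlated by 0.06 on average (-0.0398 to 0.155), against -0.0147 between embryos. Normalized counts are counts divided by TMM-scaled library size and multiplied by its mean. Ratios within an embryo used normalized counts plus 0.5. Intervals are at 95%. Alternatives used DESeq2 1.42.0, limma-voom (limma 3.58.1), other scalings, filters and members, no block, and each embryo left out. Exon lengths came from GENCODE M21, counting bases inside the deposited coordinates, and shared stretches (at least 70 bases, 95% identity) from BLAST+ 2.17.0.

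Members and lists were chosen with earlier results of these data known. Synthetases were named by the rule, with values in every library for the 6 cytosolic and 4 mitochondrial genes of smallest p and their counterparts, and in each list the 3 genes of smallest p, or all in lists of 6 or fewer. Other genes were named after their values were seen. Pou5f1, Nanos2, Nanos3, Fcgr1, Insl3, Pax2 and Fgf21 of the lists did not pass the filter. Single values of 1 synthetase and 2 markers are not reported here, though counts, sums and medians include them.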

Additional observations from a re-analysis of the deposited data

Results flagged for a closer look

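In 6 of 74 groups of 5 values (37 genes in vehicle and GPI), 1 gonad stood far from the other 4, with a gap to the nearest value above 0.71 of the range of the group. Chance alone does this in about 1 of 20 groups. All 6 were mitochondrial synthetases. In vehicle gonads, the value of embryo 2 was high for Lars2 (75752 against 53784 to 58361 in the other 4), that of embryo 1 for Wars2 (166 against 102 to 118 in the other 4) and that of embryo 3 for Nars2 (356 against 257 to 276 in the other 4). In GPI gonads, embryo 5 was high for Wars2 (209 against 124 to 145 in the other 4) and low for Yars2 (257 against 321 to 341 in the other 4), and embryo 3 was low for Aars2 (35.2 against 50.5 to 56 in the other 4).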

How the results depend on the processing

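Alternatives to the main processing were another test, scaling, filter or choice of members, no replicate block, and each embryo left out. Among the 15 cytosolic genes whose deposited coordinates overlap no other entry, 9 were called higher. Hars and Iars, which share stretches of transcript with other genes, were kept among these. So was Aars, whose GENCODE transcript shares 1326 bases with Exosc6, although their deposited coordinates do not overlap. The count of all cytosolic synthetases called higher was 12, 11 with DESeq2, 12 with limma-voom, 10 with DESeq2 size factors, 9 with total counts, 11 with no filter, 10 with at least 10 counts in every library and 8 to 10 with an embryo left out. Without the replicate block, which ended the calls of Iars and Gars, made Dars lower and changed no other call of a synthetase, it was 10 (3108 genes called in all, against 3198). Of the 12 called genes, 8 were called under all 12 alternatives fitted, and Iars, Tars, Gars and Qars were not. Dars made 1 cytosolic gene lower without the replicate block and 1 with total counts, and leaving out an embryo gave 0 to 1 mitochondrial genes lower (Lars2, without embryo 1). The cause was not tested. The cytosolic minus mitochondrial median ran from 0.22 to 0.35, and was 0.23 without Lars2 and 0.24 without Iars, both chosen after seeing the data. The mitochondrial median was 0.03, -0.02 with total counts and -0.05 to 0.05 with an embryo left out. It was -0.03 over the 15 genes whose deposited coordinates overlap no other entry. Genes that share stretches of transcript with others were kept here too, among them Cars2, Ears2, Fars2, Hars2, Lars2, Nars2 and Vars2. Of genes not called, leaving out an embryo moved the log2 fold change without a change of sign by over 1.5 times for some, among them Aars2 (0.29 to 0.73), Wars2 (0.16 to 0.47), Ears2 (0.13 to 0.37), Pars2 (-0.46 to -0.18), Lars2 (-0.32 to -0.08) and Vars (-0.27 to -0.11). Log2 fold changes changed sign only in genes not called: with an embryo left out they ran -0.06 to 0.11 for Farsa, -0.16 to 0.34 for Sars2, -0.07 to 0.19 for Fars2, -0.08 to 0.32 for Cars2, -0.11 to 0.07 for Nars2, -0.21 to 0.02 for Vars2, -0.18 to 0.07 for Wars, -0.25 to 0.24 for Mars2 and -0.10 to 0.06 for Kars. With another processing, Rars2 was -0.02 (total counts), Mars2 0.01 (limma-voom) and Kars -0.01 (DESeq2), -0.01 (its size factors), -0.05 (total counts), 0.00 (no filter) and -0.01 (10 counts in every library). The fewest raw counts were those of Sars2, 18 to 49 per library, with an SE of 0.34.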
